A study of Homo sapiens with 6 samples.

Results

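The regions described here are accessible sites that were called in every wild-type (WT) library and in no CRAMP1 knockout (CRAMP1-KO) library, and are called WT-only regions. Peaks of the 6 deposited lists that overlapped by 1 bp or more were merged into 243541 regions on chromosomes 1 to 22. Of these, 235633 lay outside 4 segments left out by the rule, namely 60 to 75 Mb of chromosome 4, 0 to 15 Mb of chromosome 11, chromosome 13 from 75 Mb nearly to its end and 20 to 75 Mb of chromosome 18. A WT-only region had a peak in 3 of 3 WT lists and in 0 of 3 CRAMP1-KO lists, and 2675 regions met this rule. The calls themselves chose the regions, so their difference between genotypes is a description and is not tested.

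The data are ATAC-seq peak lists of U2OS, an established human osteosarcoma line, with 3 libraries of WT cells and 3 of CRAMP1-KO cells. Each library came from 50000 cells, whose nuclei met the transposase for 30 min, and was amplified with 7 PCR cycles. All cells grew in the same serum-containing medium, and no treatment is labelled for either genotype. The labels give no more on the knockout than its name, and do not say whether it was 1 clone or whether replicates were separate cultures, so the spread between libraries may be technical. Accessibility checks neither the edit nor the identity of the line, and no marker genes were looked up, because no annotation of the deposited build (hg19) was used here. For the same reason the regions are given by position, without genes or sequence.

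ATAC-seq reads out where a transposase can insert into chromatin, mainly at nucleosome-free promoters and enhancers and in the linker DNA between nucleosomes. Linker histone H1 binds at the entry and exit of DNA on the nucleosome and favours compact chromatin. CRAMP1 is known as a factor that supports expression of H1 genes. A peak list records what passed a threshold and not what was present below it, so a call also depends on depth.

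The 6 lists held between 132710 and 198912 peaks, the shortest being WT replicate 3 and the longest WT replicate 1. The deposited lists hold no read counts, so the number of reads is unknown. The deposited fold enrichment and −log10 p of a peak together fix the pileup, which is the number of reads or fragments stacked at its summit, and the local background. At regions shared by all 6 lists the WT libraries had median pileups of 98, 88 and 54, by replicate number, and the CRAMP1-KO libraries of 62, 63 and 97. By this pileup WT replicate 3 was the shallowest library and WT replicate 1 and CRAMP1-KO replicate 3 the deepest. Depth is meant in this sense below, and pileup also varies with how strongly a library is enriched at open sites.

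WT-only regions were 1.14% of all merged regions outside the segments and 2.61% of the 102606 regions with a peak in all 3 WT lists. The reverse set, CRAMP1-KO-only regions, held 1690 regions, or 0.717% of all and 1.68% of those with a peak in all 3 CRAMP1-KO lists. Just outside the rule, 4551 regions had a peak in all 3 WT lists and in 1 CRAMP1-KO list, 7755 in 2 and 87625 in all 3. Another 9459 had a peak in 2 WT lists and no CRAMP1-KO list. The number of WT-only regions rests on single libraries, because the rule loosens when a library is taken away. It was 5607 without CRAMP1-KO replicate 3, 5608 without WT replicate 2 and 8298 without WT replicate 3. In lists cut to equal length it was 1740. In bulk cells, a site open in fewer cells and a site less open in each cell cannot be told apart.

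Most WT-only regions were wide. The widths ran from 163 to 1768 bp with a median of 405 bp, and 355 regions, or 13.3%, were up to 250 bp wide (exact 95% binomial interval 12.01 to 14.6%, counting error only). These are called narrow below, and the other 2320 wide. Of the CRAMP1-KO-only regions 152, or 8.99%, were narrow (7.67 to 10.5%). Of the 13933 regions with a peak in exactly 3 lists drawn from both genotypes, called mixed regions, 11.53% were narrow. The mixed regions hold as many peaks per region as the WT-only ones and so serve as the nearest comparison. The share of narrow regions thus lay above that of the reverse set and close to that of the mixed regions. Without 1 WT library, when fewer peaks are merged, it was 21.7, 26.7 and 20.8% for WT replicates 1, 2 and 3.

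**Figure D1:**
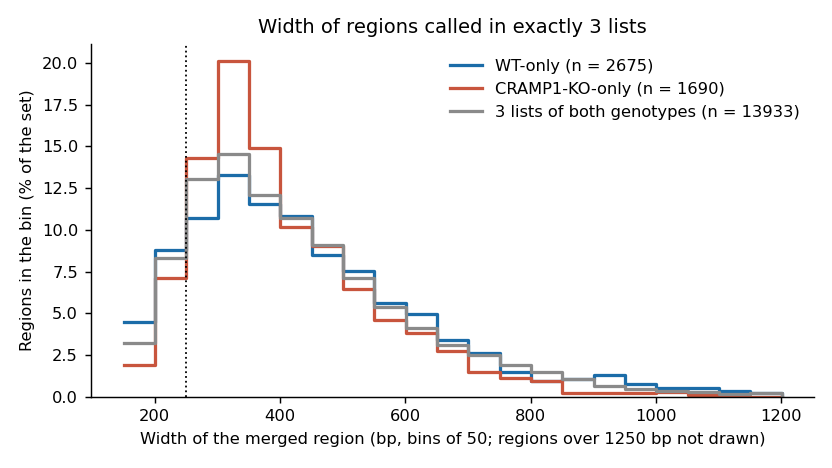
Width of merged regions in bp (horizontal axis) against the share of the set in each bin of 50 bp (vertical axis), for WT-only, CRAMP1-KO-only and mixed regions, with a dotted line at the limit of 250 bp. The WT-only line lies above the CRAMP1-KO-only line left of the limit, where 13.3% and 8.99% of the sets fall.

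Outside these regions, the mean share of narrow peaks was higher in the WT lists, with overlap between the groups and a test that cannot give a p below 0.1. The peaks of each list were taken that lay outside the 4 segments and in neither genotype-specific set. Among them, the share up to 250 bp wide was 31.8, 20.6 and 26.5% in the WT lists, by replicate number. It was 18.6, 21.1 and 17.8% in the CRAMP1-KO lists. WT replicate 2 fell below CRAMP1-KO replicate 2, so the groups overlapped. The means were 26.3% ± 5.62 and 19.2% ± 1.73 (SD, n = 3; two-sided exact permutation p = 0.2, the smallest possible being 0.1). The difference of CRAMP1-KO minus WT, -7.13 points, was -3.86 points in lists of equal length (exact permutation p = 0.6) and -4.43 points without WT replicate 1 (exact permutation p = 0.3). The narrowest peak spanned 135, 163 and 147 bp in the WT lists, and those of the CRAMP1-KO lists spanned 163, 158 and 168 bp. This lower bound was smaller in WT replicates 1 and 3 than in any CRAMP1-KO list, and its part in the number of narrow WT-only regions was not tested.

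At their summits, WT-only regions were weak members of their lists. Fold enrichment, as deposited, sets the pileup at the summit against the library's own local background. In narrow regions its median was 3.76, 3.90 and 3.98 in WT replicates 1, 2 and 3, and in wide regions 3.10, 3.32 and 3.38. All peaks of those lists had medians of 4.25, 5.96 and 6.19. Both width classes lay below their list's median in every WT library, and the narrow regions lay above the wide ones in every WT library. The means over libraries were 3.88 ± 0.115 for narrow and 3.27 ± 0.148 for wide regions (SD, n = 3). The same order held in mixed regions, where median folds by library ran from 3.92 to 4.33 in narrow and from 3.10 to 3.38 in wide regions. It depended on how width was measured. With regions classed by the median width of their own peaks instead of by the merged region, the means were 3.36 for narrow and 3.34 for wide regions.

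**Figure D2:**
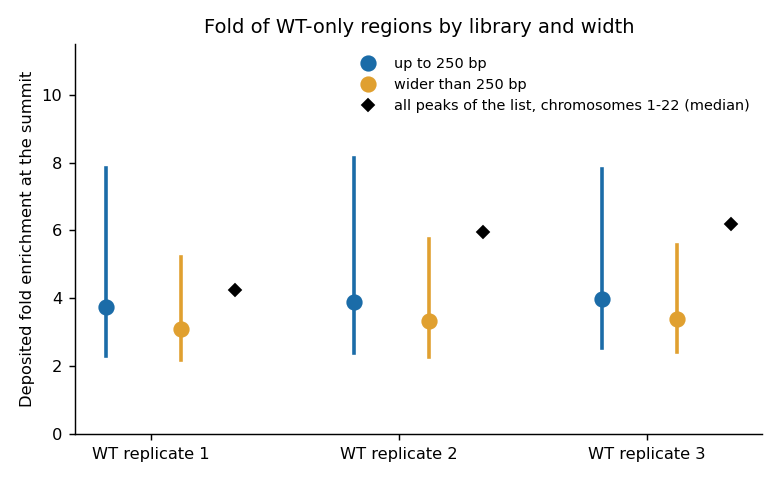
Deposited fold enrichment at the summit (vertical axis, no unit) of WT-only regions in each WT library, with the median as a circle and the 5th to 95th percentile as a bar, and the median of the whole list as a diamond. Narrow regions have higher medians and longer upper bars than wide regions, and all region medians lie below their list's diamond.

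CRAMP1-KO-only regions had higher folds in their own lists, with medians of 4.29, 4.47 and 5.11 over all widths in CRAMP1-KO replicates 1, 2 and 3, against 3.13, 3.42 and 3.48 for all WT-only regions in WT replicates 1, 2 and 3. Folds are relative to each library's own background, so these values are set side by side without a test. The local background was also higher more often at WT-only regions. Expressed as a multiple of the lowest background in the same list, it reached at least 3 in 387 WT-only regions (14.5%), in 5.62% of CRAMP1-KO-only regions and in 7.77% of mixed regions. Among narrow WT-only regions the share was 20.8%, and among wide ones 13.5%.

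Strength differed widely among the members. In 926 WT-only regions, or 34.6%, the lowest −log10 q over the 3 WT lists was below 3, where the lists end at a q of 0.05. Only 37 regions had a −log10 q of at least 20 in all 3 lists, of which 19 were narrow and 18 wide. By merged width, narrow regions were therefore 13.3% of the set but 19 of its 37 strongest members. Among CRAMP1-KO-only regions, 80 reached this strength in all 3 of their own lists, and 10 of those were narrow. Of the 37 WT-only regions, 15 lay on a background below 1.5 times the lowest of the list and 15 on a background of at least 3 times the lowest. High −log10 q values thus occurred both at sites with a high fold on a background near the lowest of the list and at sites with a modest fold on a high background.

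Of the 5 strongest narrow regions, 4 were of the first kind, with a background below 1.5 times the lowest in all 3 WT lists. The region at chr3:155100290-155100460 had the highest median −log10 q of all members, with folds of 16.3, 18.7 and 17.4 in WT replicates 1, 2 and 3 from pileups of 108, 90 and 61. The next, chr12:4627680-4627846, had folds of 13.7, 15.2 and 14.1 from pileups of 88, 73 and 49. At chr17:64251263-64251425 the folds were 10.7, 13.4 and 11.2. In all of these the 3 WT libraries gave like folds although their pileups followed the depth of the library. At chr15:20703125-20703314 the folds were 13.1, 14.4 and 12.7, and the 3 summits lay within 1 bp of each other. At chr2:181607631-181607808 they were 11.4, 11.3 and 12.2, on a background of 1.44, 1.503 and 1.75 times the lowest, and a region shared by all 6 lists began 254 bp away. The other 4 lay between 7424 and 14313 bp from the nearest shared region. CRAMP1-KO peaks lay 4896, 819, 6367, 7437 and 254 bp from these 5 regions.

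The 5 strongest wide regions were of both kinds. The region at chr1:86094508-86095367 was 860 bp wide and had folds of 13.9, 14.1 and 13.7 in WT replicates 1, 2 and 3, on a background of 1.42, 1.51 and 1.41 times the lowest of each list. At chr15:31942512-31942780, which was 269 bp wide, the folds were 12.1, 13.8 and 12.7 on the lowest background of each list. The other 3 had lower folds on a raised background. At chr14:73708102-73708580 pileups of 203, 230 and 135 went with folds of 3.702, 4.36 and 3.998, on a background of 10.6, 13.5 and 12.9 times the lowest. At chr3:46732218-46732547 the folds were 4.36, 4.32 and 3.79 on a background of 8.34, 10.6 and 10.3 times the lowest. The region at chr10:47666869-47667127 had folds of 5.64, 6.48 and 6.75. Shared regions lay 5126, 10846, 2166, 1349 and 555 bp from these 5, in the order named.

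The limit of 250 bp cuts through a continuous range. The 3 strongest regions of exactly 250 bp, just inside, were chr11:130381730-130381979 with folds of 7.84, 8.83 and 10.4, chr16:24534925-24535174 with 4.78, 4.85 and 4.16, and chr3:150077223-150077472 with 6.53, 6.16 and 4.78. The 3 strongest regions that were 1 bp wider, just outside, were chr2:9471935-9472185 with folds of 5.16, 5.77 and 4.73, chr2:223292733-223292983 with 6.53, 8.42 and 5.63, and chr11:72909729-72909979 with 2.78, 2.46 and 2.93. Folds on both sides of the limit overlapped.

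Summits agreed more closely in narrow regions, which leave less room for them to differ. The median distance between the outermost summits of the 3 WT lists was 39 bp in narrow and 106 bp in wide regions. They fell within 10 bp of each other in 57 narrow regions (16.1%) and 136 wide regions (5.86%). Wide CRAMP1-KO-only regions had a smaller spread in their own lists, with a median of 50.5 bp and 15.2% within 10 bp. In 93 wide WT-only regions a list held more than 1 peak, so part of the wide class joins neighbouring peaks. No narrow WT-only region did so.

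The lack of a CRAMP1-KO call depended on how strong the site was in WT. Regions with a peak in all 3 WT lists were grouped by the lowest −log10 q over those lists and classed by the width of their WT peaks alone. Among wide regions the share with no CRAMP1-KO peak was 20.3% below a −log10 q of 3 (880 of 4328 regions), 3.07% from 5 to 10 and 0.649% from 10 to 20 (105 of 16185). From 50 up it was 1 of 32636 regions. Among narrow regions the share was 32.9% below 3 (46 of 140), 14.6% from 5 to 10, 5.69% from 10 to 20 (65 of 1143) and 0.604% from 50 up (2 of 331). At each level of strength, a narrow WT region was thus left without a CRAMP1-KO call more often than a wide one. The exact 95% binomial intervals from 10 to 20 were 4.42 to 7.19% for narrow and 0.531 to 0.785% for wide regions and cover counting error only. This was not a feature of the WT lists alone. Of regions with a peak in all 3 CRAMP1-KO lists and a lowest −log10 q from 10 to 20, 5.32% of narrow and 1.57% of wide ones had no WT peak. In both directions a narrow region leaves less sequence for a peak of the other genotype to overlap. The part of this in the order of narrow and wide regions was not tested.

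**Figure D3:**
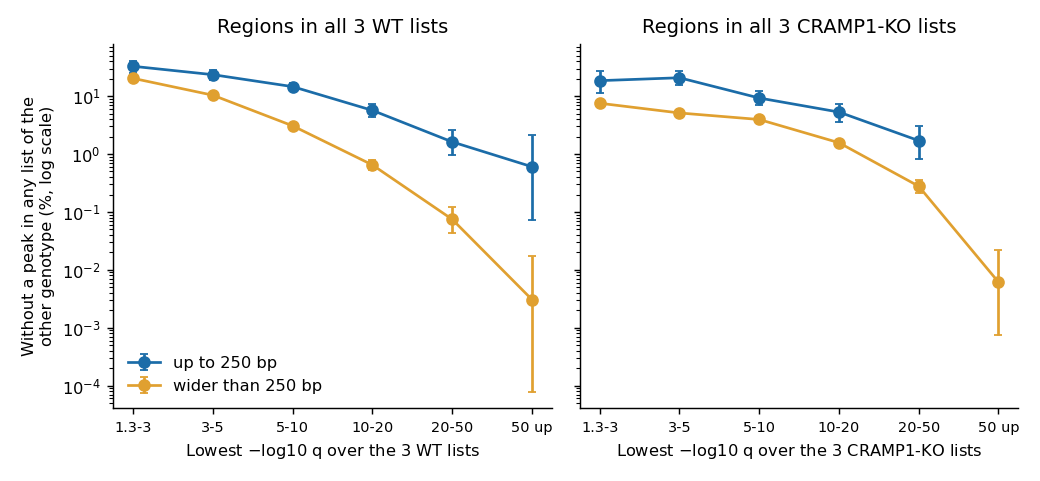
Share of regions without a peak in any list of the other genotype (vertical axis, percent on a log scale, with exact 95% binomial intervals) by the lowest −log10 q over the 3 lists of the genotype in which all lists have a peak (horizontal axis). The share falls with strength, except from the first to the second point of narrow CRAMP1-KO regions, and narrow regions lie above wide regions throughout; the point with no such region, among narrow CRAMP1-KO regions from 50 up, is not drawn.

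The pattern of calls was then read in libraries that had no part in choosing the regions. Regions were chosen with a peak in 2 WT libraries and in neither of 2 CRAMP1-KO libraries, and the share with a peak was taken in the WT and the CRAMP1-KO library left out, for each of the 9 pairs of libraries that can be left out. Narrow regions chosen in this way had a peak in the WT library left out in 50.4% on average (29.9 to 77.8%) and in the CRAMP1-KO library left out in 22.9% (14.0 to 39.98%). Wide regions had one in 57.2% (34.3 to 80.4%) and 29.3% (17.9 to 50.5%). The WT library was ahead in 8 of 9 pairs in each width class. The exception was the pair of WT replicate 3 and CRAMP1-KO replicate 3, the shallowest WT and the deepest CRAMP1-KO library, with 31.7% and 34.6% for narrow and 40.7% and 44.1% for wide regions. The pairs share libraries, so no p-value is given.

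In lists cut to equal length the shares were more even. There the WT library was ahead in 9 of 9 pairs, with a mean of 52.3% against 25.2% for narrow and 57.6% against 32.0% for wide regions. The difference ranged from 3.91 to 44.0 points in narrow and from 17.6 to 34.8 points in wide regions. The pairs share libraries here too, and libraries cut to equal length still differ in depth. Regions chosen the other way, as CRAMP1-KO-only, had a peak in the CRAMP1-KO library left out in 52.5% of narrow and 63.9% of wide regions and in the WT library left out in 25.3% and 30.4%. On average about as large a part of WT-chosen as of CRAMP1-KO-chosen narrow regions was thus found again in the same genotype. Many regions chosen from 2 libraries of each genotype were not called in the next library of the same genotype, and some were called in the other.

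**Figure D4:**
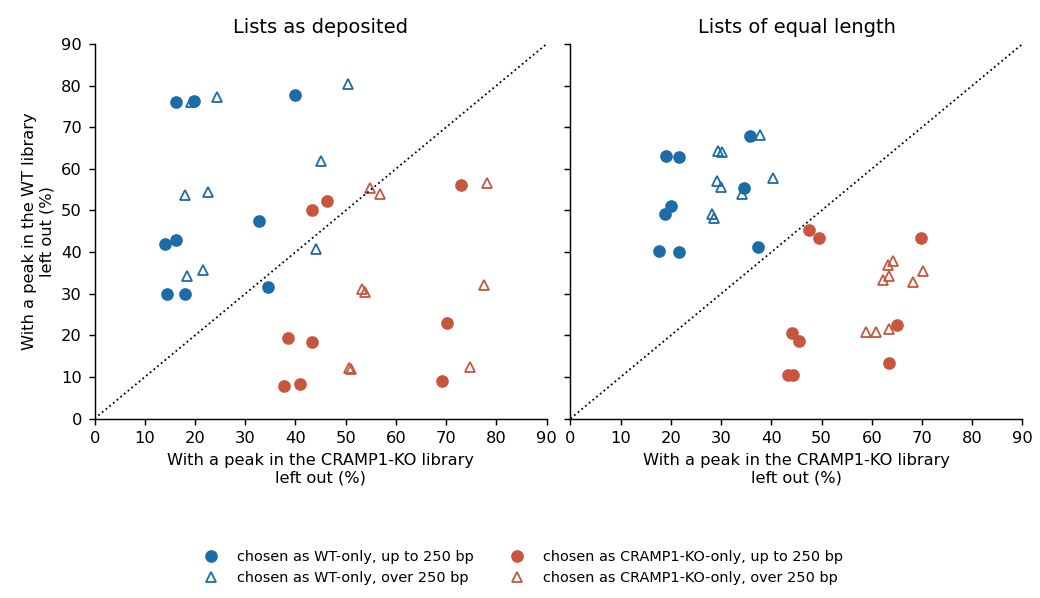
Share of chosen regions with a peak in the CRAMP1-KO library left out (horizontal axis, percent) and in the WT library left out (vertical axis, percent), 1 point per pair of libraries left out and width class, for deposited lists (left) and lists of equal length (right); the dotted line marks equal shares. In lists of equal length all 9 pairs of each width class chosen as WT-only lie above the line, and those chosen as CRAMP1-KO-only lie below it.

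WT-only regions lay near other accessible sites. The median gap to the nearest region shared by all 6 lists was 4222 bp for narrow and 5988 bp for wide regions, and 245 narrow (69.0%) and 1582 wide regions (68.2%) had a shared region within 10 kb. The width classes differed little in this. CRAMP1-KO-only regions were farther away, with medians of 12828.5 bp for narrow and 13620.5 bp for wide regions and 41.7% of all within 10 kb. Mixed regions lay between, with 6224.5 and 7443 bp and 61.8%. The surroundings followed the same order. Within 500 kb on either side, a WT-only region had a median of 52 shared regions, a mixed region 47 and a CRAMP1-KO-only region 25. A peak of any CRAMP1-KO list lay within 100 bp of 38 WT-only regions (1.42%) and within 500 bp of 285 (10.7%), with a median gap of 2355 bp. In the reverse set, a peak of any WT list lay within 100 bp of 0.592% and within 500 bp of 8.17%, with a median gap of 5609.5 bp. WT-only regions thus lay closer to peaks of the other genotype than CRAMP1-KO-only regions did.

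**Figure D5:**
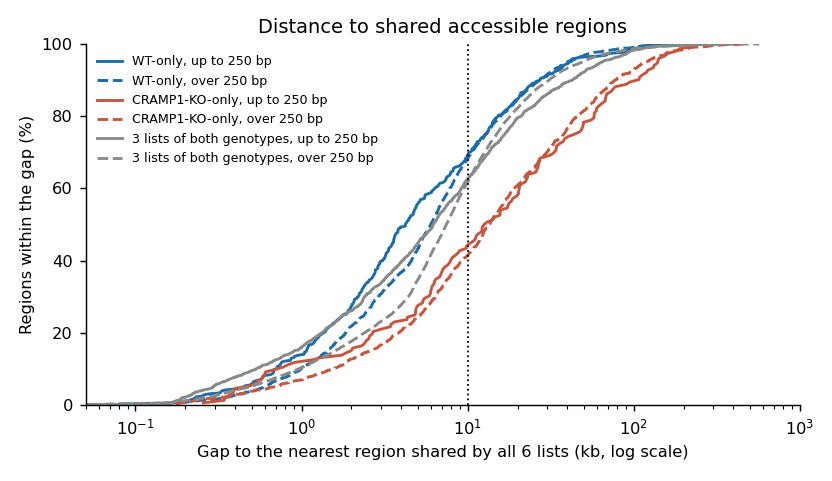
Share of regions (vertical axis, percent) whose gap to the nearest region shared by all 6 lists is at most the value on the horizontal axis (kb, log scale), by set and width class, with a dotted line at 10 kb. WT-only regions of both widths reach 69.0% and 68.2% at 10 kb, above the other sets.

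WT-only regions rarely lay within 10 kb of each other, but they were not evenly spread over megabases. Of the bins of 1 Mb, 1293 held none, 186 held 4 or more and 38 held 6 or more. Whether this exceeds a random scatter was not tested. The median gap to the nearest other WT-only region was 247002 bp for narrow and 160972 bp for wide regions, and 22 narrow (6.20%) and 125 wide regions (5.39%) had another within 10 kb. CRAMP1-KO-only regions, of which there are fewer, had another of their kind within 10 kb in 2.60% and a median gap of 453776.5 bp. Mixed regions, of which there are more, had one within 10 kb in 19.1%. Of the groups formed at 10 kb, 2528 held a single region, 72 held 2 and only 1 held 3. With the rule loosened by leaving out WT replicate 3, the shares within 10 kb were 11.6% of narrow and 16.6% of wide regions. Without CRAMP1-KO replicate 3 the wide share was 11.4%, and without WT replicate 2 it was 9.47%.

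The group of 3 spanned chr20:48857844-48868890, with 1 narrow and 2 wide regions. Its members had modest folds on a raised background, at 2.23, 2.29 and 2.49 in WT replicates 1, 2 and 3 for the first, 2.40, 2.32 and 2.69 for the second and 3.25, 3.55 and 2.79 for the third. The strongest pair lay at chr1:147010950-147017213. Its narrow member had folds of 5.33, 4.64 and 5.68 with all 3 summits on the same base, and its wide member had folds of 5.11, 5.14 and 5.19. Another pair at chr10:47663184-47667127 joined the strong wide region named above to a weak neighbour with folds of 1.97, 2.12 and 2.08. In all 3 groups every member but 1 had a background of at least 3 times the lowest in all 3 lists, and the exception reached 2.98 in WT replicate 1.

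Every chromosome from 1 to 22 held WT-only regions. As a share of the regions with a peak in all 3 WT lists they ran from 1.62% on chromosome 13 (17 of 1051) and 1.98% on chromosome 4 to 3.23% on chromosome 14 and 4.10% on chromosome 18 (50 of 1221). Chromosomes 4, 11, 13 and 18 were counted only outside the segments left out. In all but 3 chromosomes (4, 6 and 13) WT-only regions outnumbered CRAMP1-KO-only ones. The richest megabases, picked after their counts were seen, were 134 to 135 Mb of chromosome 8 with 10 WT-only regions, all wide, and 60 to 61 Mb of chromosome 17 and 3 to 4 Mb of chromosome 4 with 9 each, of which 1 was narrow.

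The shared regions beside WT-only regions had slightly lower pileups in CRAMP1-KO. Pileup at the nearest shared region was taken on a log2 scale relative to each library's median over all shared regions. Beside narrow WT-only regions its median was 0.13, 0.16 and 0.15 in the WT libraries, by replicate number. The CRAMP1-KO libraries had 0.11, 0.11 and 0.06, without overlap. Beside wide ones the WT medians were -0.19, -0.19 and -0.17, which overlapped the CRAMP1-KO medians of -0.17, -0.22 and -0.21. With only neighbours within 10 kb counted, the WT medians beside wide regions were -0.22, -0.23 and -0.22. The CRAMP1-KO medians were then -0.25, -0.28 and -0.26, without overlap. The median difference of CRAMP1-KO minus WT was -0.10 at the neighbours of narrow and -0.08 at those of wide regions, against -0.07 over all 87625 shared regions. It was 0.12 and 0.11 at the neighbours of narrow and wide CRAMP1-KO-only regions, and 0.13 and 0.05 at those within 10 kb. At the neighbours of narrow and wide mixed regions it was -0.04 and -0.06. The neighbours of WT-only regions thus stood close to the shift of all shared regions, and those of CRAMP1-KO-only regions on the other side of it. These values use the same genotype contrast that chose the regions, so they carry no test.

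By megabase the relation was steeper, but the bins were sorted by calls of the same libraries, so it carries no test. Bins of 1 Mb with 4 or more WT-only regions numbered 186, and in 176 of them (94.6%) the median pileup of shared regions was lower in CRAMP1-KO, with a median log2 difference of -0.12. In the 1119 bins with 1 to 3 WT-only regions the difference was -0.07, and 71.1% were lower. In the 1293 bins without a WT-only region the difference was 0.06, and 34.6% were lower. Bins rich in WT-only regions were also rich in shared regions, with a median of 63 per bin against 17. Among bins with 40 or more shared regions, the difference was -0.12 with 4 or more WT-only regions (95.1% of 163 bins lower) and -0.07 with none (80.9% of 152 bins lower). Those with 1 to 3 WT-only regions lay between, at -0.11 (87.8% of 582 bins lower). Shared regions per bin rose as well, with medians of 47.5, 57 and 65 for 0, 1 to 3 and 4 or more WT-only regions. The part of peak density in the contrast between bins was not tested.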

How the data were processed

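ATAC-seq of 3 WT and 3 CRAMP1-KO samples was used as 6 peak lists, 1 per library and not pooled. The tools named per the submitters' processing notes are MACS3, BWA 0.7.17-r1188, cutadapt 3.4 and bcl2fastq 2.20.0, with the build hg19. What was done with duplicate reads, any read shift and the tools' settings are not given here. The deposited score equals the −log10 q times 10 to within rounding, and was not used further. The deposited fold is a ratio of summit pileup to local background, with 1 added to each. The deposited −log10 p and its −log10 q compare the pileup with that background. Coordinates count from 1.

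Peaks were merged at an overlap of 1 bp, and a region took its strongest peak in each list. Pileup and background were solved from fold and −log10 p, matched within 0.01 in 100% of peaks. The solver returned the true pileup in 100% of 20000 simulated peaks. Their fold and p were made with the same relation that the solver inverts, so this checks the inversion only. Shares carry exact (Clopper-Pearson) 95% intervals. Python 3.11.15, numpy 2.4.6, pandas 2.3.3, scipy 1.17.1 and matplotlib 3.10.9 were used. The 1 test was a two-sided exact permutation test over 20 assignments of the libraries. Regions were named as the 5 narrow and 5 wide whose −log10 q had the highest medians over WT lists, the 3 nearest the width limit on each side (the strongest where tied), and the 3 largest groups. Members, sets and comparisons were chosen with earlier results of these data known. Alternatives tried were lists of equal length, stricter q limits, other widths and overlaps, the segments kept and each library left out.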

Additional observations from a re-analysis of the deposited data

How the results depend on the processing

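In lists of equal length there were 1740 WT-only regions, 16.3% of them narrow, with median folds of 4.31 (narrow) and 3.77 (wide), and 3.71% of wide regions lay within 10 kb of another. At a −log10 q of at least 5 there were 1893 WT-only regions, the median folds were 4.56 and 4.11, and 60.8% of wide regions lay within 10 kb of a shared region. With a limit of 200 or 300 bp the narrow share was 4.49% or 24.0% and the narrow fold 4.42 or 3.72. By the median width of the peaks, the narrow share was 44.9%, the narrow fold 3.36, and 70.1% of wide regions lay within 10 kb of a shared region. Under the remaining settings with all libraries there were between 2549 and 2786 WT-only regions. The folds and shares under the other settings stayed within the spread between libraries or the counting interval. With 1 library left out, the number ranged from 3368 to 8298, the narrow share from 10.6 to 26.7%, the narrow fold from 3.31 to 4.19 and the wide fold from 3.03 to 3.398. The shares within 10 kb of a shared region ranged from 68.6 to 71.2% (narrow) and 65.6 to 71.0% (wide), and those within 10 kb of another WT-only region from 5.99 to 11.6% and 6.63 to 16.6%. Leaving out a library loosens the rule, and merging fewer peaks makes regions narrower.

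For the narrow share of other peaks, the difference of CRAMP1-KO minus WT was -7.13 points and ranged from -9.34 to -4.43 with 1 library left out. In lists of equal length it was -3.86 points (exact permutation p = 0.6), and over all alternatives p ran from 0.1 to 0.6. With a replicate block, as sign flips between libraries of the same number, it was -7.13 points with an exact permutation p = 0.5, where the smallest possible is 0.25. The labels do not say that the numbers mark a shared culture, and the deviations from the group means, at 5.50, -5.74 and 0.237 points in WT and -0.619, 1.95 and -1.33 in CRAMP1-KO, had opposite signs in every pair.

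A region missing from a list was not called at that depth, which differed between libraries, and is not shown to be closed. The lists give no signal at WT-only regions in CRAMP1-KO, so none was tested there.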

Other observations

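Inside the 4 segments left out of the rule, 111 regions had a peak in all 3 WT lists and in no CRAMP1-KO list, 10 of them up to 250 bp wide, and 149 had the reverse pattern. They were unevenly spread. From 0 to 15 Mb of chromosome 11 there were 54 with the WT pattern and 1 with the reverse, and on chromosome 13 from 75 Mb nearly to its end there were 39 and 5. From 20 to 75 Mb of chromosome 18 there were 14 and 127, and from 60 to 75 Mb of chromosome 4 there were 4 and 16. As a share of the regions with a peak in all 3 WT lists, those with the WT pattern were 6.398% in the segment of chromosome 11, 4.67% in that of 13, 1.03% in that of 18 and 1.62% in that of 4, against 2.61% outside the segments.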
